A study of Mus musculus with 18 samples.

Results

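A set of 9 genes that mark tuft cells was followed in the distal colon of mice that develop colitis without interleukin 10. The genes are Pou2f3, Gfi1b, Trpm5, Sh2d6, Avil, Dclk1, Ptgs1, Alox5 and Il17rb. They were taken by their symbols, and the rule uses no measured value. All 9 are among the 16321 genes of the deposited count and TPM tables, and all 9 passed the filter on low counts. Polyadenylated RNA of distal colon biopsies was sequenced from 18 mice of the BALB/c strain, each library from its own mouse, with 6 groups of 3. Wild-type mice were 6 weeks old, and Il10KO mice, which lack the gene for interleukin 10, were 6, 8, 10, 12 or 14 weeks old. The labels name no treatment and no allele other than the knockout. No wild-type mice older than 6 weeks were sampled, so colitis and growth cannot be told apart at later ages, and all wild-type mice came from cage G, which held no Il10KO mouse.

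Tuft cells are rare chemosensory cells of the intestinal epithelium that carry a tuft of long microvilli. They sense luminal metabolites through a pathway shared with taste cells, in which G proteins, phospholipase C and inositol trisphosphate receptors lead to opening of the TRPM5 cation channel. They answer with interleukin 25, which acts on innate lymphoid cells of type 2 immunity, and with prostaglandins, leukotrienes and acetylcholine. Most of the 9 genes are not used by tuft cells alone: Ptgs1 is also known from platelets, endothelium and stroma, Alox5 from myeloid and mast cells, Dclk1 and Avil from neurons, Gfi1b from erythroid cells and megakaryocytes, and Il17rb from lymphoid cells.

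Dclk1, which encodes a microtubule-binding kinase with doublecortin domains and is a common mouse tuft cell marker, lies on chromosome 3 from 55242364 to 55539068 on the forward strand (GRCm38). It is transcribed from an upstream and a downstream start, which the transcript results below separate. The 250 bases before each RefSeq start are shown because Dclk1 passed in more comparisons than the other 8 genes and its transcripts are grouped by start. These stretches end before, and do not adjoin, the GENCODE starts of the most abundant upstream and downstream transcripts (55242526 and 55461916). They are chr3:55242114-55242363 and chr3:55461478-55461727 in RefSeq on GRCm38.p6, forward strand, 5′ to 3′, with CG pairs in capitals.
Dclk1 upstream start: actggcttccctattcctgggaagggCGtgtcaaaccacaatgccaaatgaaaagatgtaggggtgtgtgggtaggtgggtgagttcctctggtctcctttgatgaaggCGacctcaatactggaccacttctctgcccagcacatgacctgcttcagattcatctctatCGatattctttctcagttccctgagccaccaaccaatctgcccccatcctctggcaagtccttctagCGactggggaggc
Dclk1 downstream start: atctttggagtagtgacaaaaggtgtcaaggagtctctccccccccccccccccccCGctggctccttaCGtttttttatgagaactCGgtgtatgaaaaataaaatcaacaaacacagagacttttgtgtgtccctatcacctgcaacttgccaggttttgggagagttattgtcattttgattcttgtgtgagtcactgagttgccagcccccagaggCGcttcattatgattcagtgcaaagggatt
Both held 4 CG pairs, against a median of 6 in the 32851 windows of the same length in the RefSeq table. Neither held TATAAA on either strand, which 12.4% of all windows did. The octamer ATGCAAAT, the classical sequence bound by POU domain factors such as the product of Pou2f3, was searched on both strands from 250 bases before to 50 after each start. RefSeq windows were matched for 8 of the 9 genes (9 windows, 2 of them of Dclk1), all but Pou2f3. The octamer was in 0 of the 9 and in 1.74% of all windows. Among the 250-base stretches Il17rb stood apart with 27 CG pairs, more than 91.4% of all windows, and Avil had 1.

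Library totals ran from 26495521 to 35497101 estimated counts, and 3 counts, the limit that a count of 0 allows, corresponded to 0.079 to 0.187 CPM. Such limits cover counting error only. RNA integrity numbers (RIN) were 8.4 to 9.3 in 16 libraries and 6.5 and 5.8 in week 14 replicates 2 and 3. Labelled lipocalin, a marker of gut inflammation, ran from 2.27 to 4.72 ng/g at Il10KO week 6 and from 2044 to 4289 ng/g at week 14. The sum of 9 neutrophil genes was 6.67 CPM in the lowest and 15250 CPM in the highest week 14 library, against 3.35 to 4.83 CPM at week 6. All 10 epithelial markers, such as Epcam and Vil1, were detected in every group, and their sum was 10523 to 12915 CPM at week 6 and 10471 to 14265 CPM at week 10. Levels below are CPM on TMM-scaled library sizes, and changes are log2 fold changes ± SE from edgeR with n = 3 in each group, called at an adjusted p below 0.05 over all genes tested. The SE comes from the spread shared by all groups.

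The 9 genes were low in whole colon tissue. On the TPM scale, which allows levels of different genes to be compared per length, Ptgs1 was highest in the wild type at 17.3 ± 3.28 TPM (SD, n = 3), followed by Dclk1 at 4.42 ± 0.952. These genes were each above the next gene in all 3 libraries. Alox5 (1.63), Il17rb (1.33), Trpm5 (1.31) and Avil (1.08) came next as mean TPM and overlapped their neighbours in this order. Sh2d6 (0.404), Gfi1b (0.320) and Pou2f3 (0.217) were lowest, overlapped one another, and lay below all Avil values. At Il10KO week 6 the order began with Ptgs1 at 17.9 TPM, Dclk1 at 5.16 and Alox5 at 2.46, each apart from the next. By week 10 Ptgs1, at 5.42 TPM, was still apart from Dclk1 at 1.05. From Dclk1 down, each gene then overlapped the next as far as Sh2d6, and Pou2f3, at 0.0310 TPM, lay below all Sh2d6 values. At week 12 Il17rb, at 1.40 TPM, stood above Dclk1, at 1.08, with overlapping values. At week 14 no gene was apart from the next.

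Dclk1 and Ptgs1 fell after week 6 in Il10KO mice, and edgeR with all libraries called none of the 9 genes higher in any comparison. Voom with a weight per group, on the same libraries, called Il17rb higher at week 12 (0.92, adjusted p = 0.00522) in a fit that called 61.9% of all genes. Dclk1 was lower at weeks 10, 12 and 14, and Ptgs1 at week 10. The other 7 genes did not pass at any age in this edgeR fit of all libraries without covariates. Alox5 passed lower at week 12 with DESeq2 or with RIN as covariate, which called 2515 and 5751 of 16300 genes, against 301 here. Trpm5 passed lower at week 10 with only the compared groups, where 6177 of 15406 genes were called. The changes of Il17rb from week 6 were above 0 at weeks 8, 10, 12 and 14 on TMM-scaled counts, and below 0 at weeks 10 and 14 on TPM. On TPM the median change of all genes was also below 0 at both ages. In bulk tissue, fewer cells of a type and less RNA per cell cannot be told apart.

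**Figure D1:**
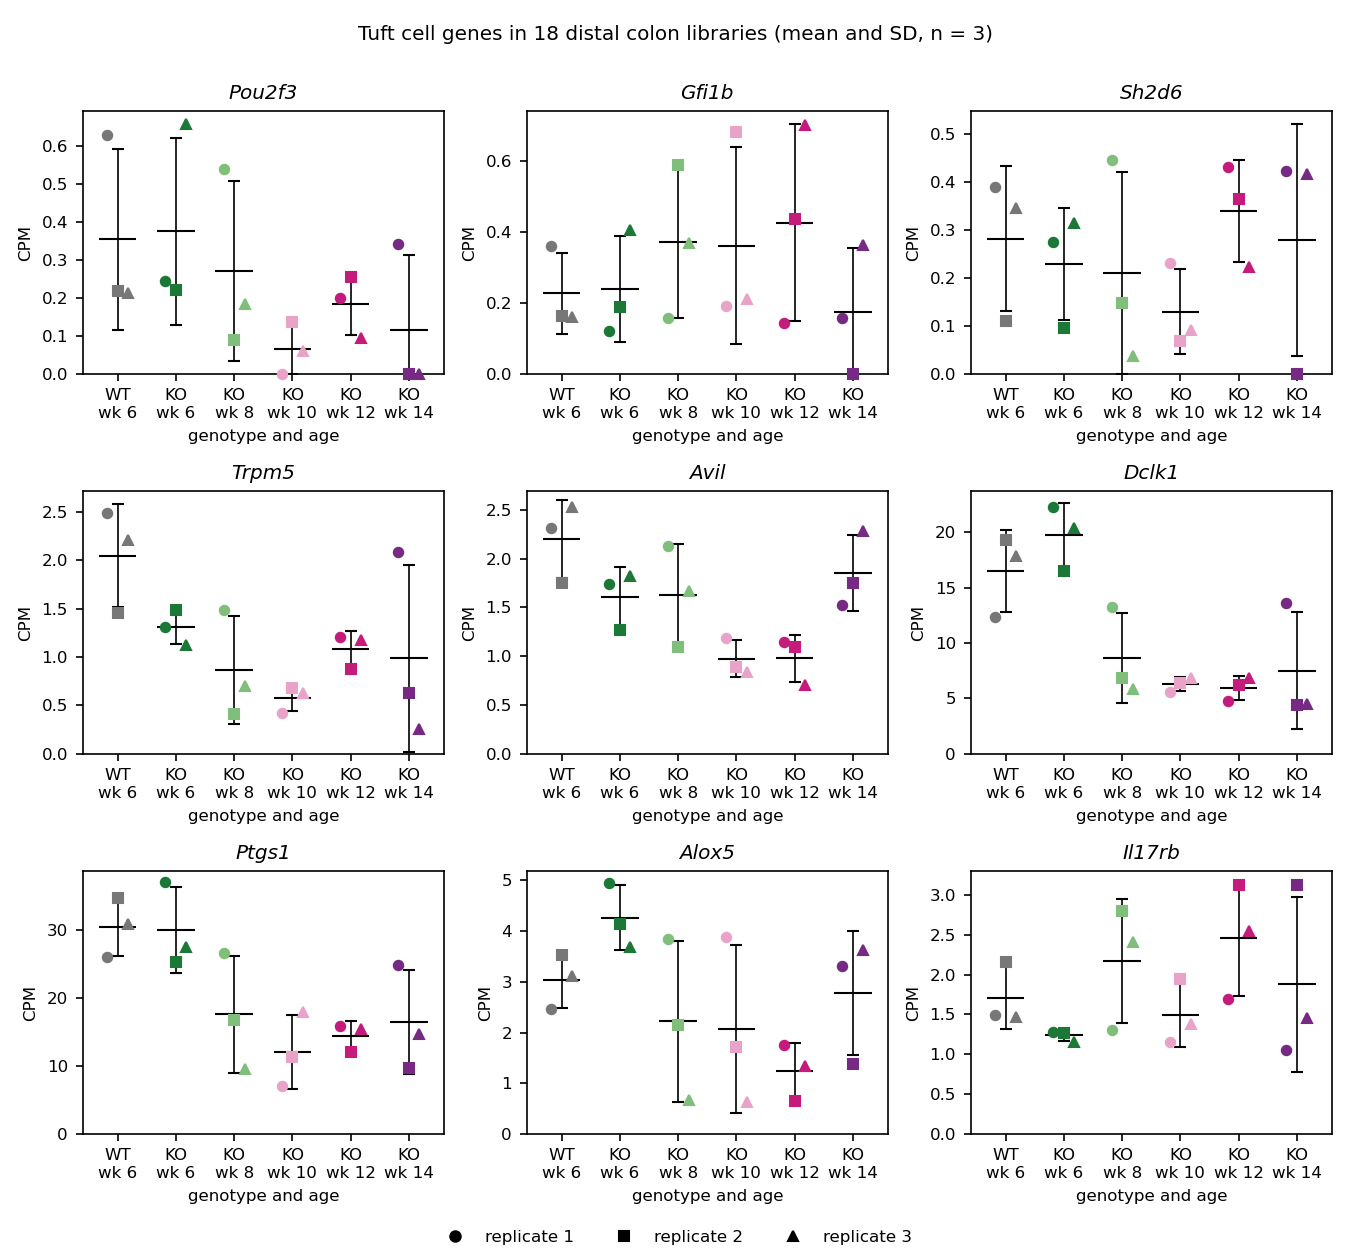
CPM of each of the 9 genes (y axis, linear, from 0) in the 6 groups (x axis, genotype and age in weeks). Symbols mark the replicates, and bars show the mean and SD of 3 libraries. Dclk1 and Ptgs1 lie lower from week 10 on, with week 14 replicate 1 higher than the other week 14 libraries.

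The transcription factors of the set were near the limit of detection. Pou2f3 (chromosome 9, 43123939 to 43210369, reverse strand, GRCm38), the master regulator required for tuft cells, had 0.629, 0.219 and 0.213 CPM in the wild type, 0.245, 0.221 and 0.658 at Il10KO week 6 and 0.539, 0.0886 and 0.185 at week 8. It had 0, 0.137 and 0.0602 CPM at week 10, 0.201, 0.254 and 0.0956 at week 12, and later 0.342, 0 and 0 at week 14. All 3 week 10 libraries were below all week 6 libraries, and the other ages overlapped week 6. The 0 at week 10 allows up to 0.115 CPM and those at week 14 up to 0.187 and 0.156 CPM. Its change at week 10 was -2.41 ± 1.15 (edgeR adjusted p = 0.108), on a mean of 2 counts a library, and it did not pass. Gfi1b (chromosome 2, 28609450 to 28621982, reverse strand), a zinc finger repressor active in tuft cells, had 0.122, 0.190 and 0.407 CPM at Il10KO week 6 and 0.143, 0.436 and 0.701 at week 12, which overlap. Over all 18 libraries Gfi1b ran from 0 to 0.701 CPM, with its 0 in week 14 replicate 2, and its groups overlapped week 6 at every age. Its change was 0.82 ± 0.84 at week 12 (edgeR adjusted p = 0.468) and -0.43 ± 0.92 at week 14 (0.704).

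Among the signalling genes, Trpm5 had its lowest mean CPM at week 10. Trpm5 (chromosome 7, 143069153 to 143094642, reverse strand), the calcium-activated cation channel of taste and tuft cells, had 2.49, 1.45 and 2.21 CPM in the wild type, 1.32, 1.49 and 1.13 at Il10KO week 6 and 1.49, 0.413 and 0.703 at week 8. It had 0.423, 0.683 and 0.632 CPM at week 10, 1.20, 0.872 and 1.18 at week 12, and later 2.08, 0.624 and 0.260 at week 14. All week 10 CPM values lay below all week 6 values, as in 30.3% of all genes, and below all week 12 values, as in 11.7%. Week 14 held both the highest and the lowest Il10KO CPM. On the TPM scale week 10, at 0.409, 0.562 and 1.17, overlapped week 6 (1.05 to 1.37) and week 12 (0.547 to 1.21). The change at week 10 was -1.17 ± 0.60 (edgeR adjusted p = 0.14), and that from week 10 to week 12 was 0.90 ± 0.60 (adjusted p = 0.542), so neither passed. Sh2d6 (chromosome 6, 72513641 to 72521707, reverse strand), an adaptor with an SH2 domain used as a tuft cell marker, ran from 0 to 0.444 CPM, and its groups overlapped at every age. Its change was -0.82 ± 0.96 at week 10 and 0.56 ± 0.88 at week 12 (edgeR adjusted p = 0.497 and 0.635).

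Avil (chromosome 10, 127000709 to 127020994, forward strand), which encodes advillin, an actin-binding protein of the microvillar rootlets, was lower at weeks 10 and 12 without passing. It had 1.74, 1.26 and 1.82 CPM at Il10KO week 6, 1.19, 0.887 and 0.843 at week 10, 1.15, 1.09 and 0.701 at week 12, and later 1.53, 1.75 and 2.29 at week 14. All CPM values of weeks 10 and 12 were below those of week 6, as in 30.3% and 32.9% of all genes. All CPM values of week 14 were above those of week 12, as in 3.33% of all genes. On the TPM scale weeks 12 and 14 overlapped, with means of 0.631 and 0.600. The changes were -0.72 ± 0.35 at week 10, -0.71 ± 0.34 at week 12 and 0.91 ± 0.35 from week 12 to week 14 (edgeR adjusted p = 0.117, 0.161 and 0.242). Without week 14 replicate 1, the difference between weeks 12 and 14 was 1.04 and passed (edgeR adjusted p = 0.0339). The remaining week 14 libraries are those of low RIN, and with limma on TPM the difference was -0.03 with a pseudocount of 1 and -0.12 with one of 0.1, so its direction turned with the scaling. The median difference of all genes in those limma fits was -0.37 and -0.61.

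Dclk1 fell at 3 ages. It had 12.3, 19.3 and 17.8 CPM in the wild type, 22.3, 16.5 and 20.4 at Il10KO week 6 and 13.3, 6.85 and 5.85 at week 8. It had 5.61, 6.38 and 6.86 CPM at week 10, 4.78, 6.22 and 6.85 at week 12, and later 13.6, 4.37 and 4.52 at week 14. Every library from week 8 on was below all 3 Il10KO week 6 libraries, and weeks 10 and 12 were tight. At week 8 such a gap below week 6 was found for 12.8% of all genes. The week 6 mean was 19.7 ± 2.97 CPM, the week 10 mean 6.29 ± 0.632 and the week 12 mean 5.95 ± 1.06 (SD, n = 3). The fall was 1.65 on the log2 scale at week 10 (SE 0.41, edgeR adjusted p = 0.0158), 1.73 at week 12 (SE 0.41, 0.0463) and 1.38 at week 14 (SE 0.41, 0.0203). At week 8 the change of -1.19 ± 0.40 had an unadjusted p of 0.0101 and did not pass (adjusted p = 0.456). The week 10 call was lost without week 6 replicate 1 (adjusted p = 0.0605) or week 10 replicate 1 (0.0634), with changes of -1.55 and -1.57. The week 12 call was lost without any 1 of the 6 libraries compared (0.0933 to 0.181). The week 14 call was lost without week 6 replicate 1 or 3 (0.0638 and 0.0553) or week 14 replicate 2 or 3 (0.101 and 0.1), and without week 14 replicate 1 the change was -2.15 (5.54e-05). Without the low-RIN libraries week 14 rests on replicate 1 alone, and the change was -0.54. The week 14 call was also lost with RIN as covariate, where the change was -0.68 (0.959). It was lost too with library size only, only the compared groups or voom (0.0557, 0.151 and 0.153). At week 14 the fits with RIN and with only the compared groups called 0 of all genes. Il10KO mice of different ages shared cages, and with cage as a factor Dclk1 passed at none of the 3 ages, with changes of -1.31, -1.59 and -1.28 (edgeR adjusted p = 0.102, 0.167 and 0.159). With cage 532, 2 and 0 of all genes passed at these ages. In the test across the 5 Il10KO ages Dclk1 was the 1 gene of the 9 that passed (edgeR adjusted p = 0.0192), as 27.4% of all genes did, and it did not pass without week 6 replicate 1 (0.0767) or 3 (0.0656).

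The eicosanoid enzymes moved unevenly. Ptgs1 (chromosome 2, 36230426 to 36252272, forward strand), which encodes cyclooxygenase 1, the constitutive enzyme of prostaglandin synthesis, had 26.0, 34.6 and 30.9 CPM in the wild type, 37.1, 25.2 and 27.5 at Il10KO week 6 and 26.6, 16.7 and 9.47 at week 8. It had 7.03, 11.4 and 17.9 CPM at week 10, 15.9, 12.0 and 15.5 at week 12, and later 24.9, 9.73 and 14.8 at week 14. All libraries of weeks 10, 12 and 14 were below all of week 6. Ptgs1 fell at week 10 by 1.31 on the log2 scale (SE 0.40, edgeR adjusted p = 0.0332), and its changes of -1.05 ± 0.40 at week 12 and -0.86 ± 0.40 at week 14 did not pass (0.113 and 0.092). The week 10 call held without week 10 replicate 3 and was lost without any 1 of the other 5 libraries (adjusted p of 0.0643 to 0.138). It was also lost with cage as a factor, library size only or limma on TPM with a pseudocount of 0.1 (adjusted p = 0.0985, 0.0609 and 0.0663). Without week 14 replicate 1 the week 14 change was -1.29 and passed (0.0106).

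Alox5 (chromosome 6, 116410077 to 116461178, reverse strand), which encodes 5-lipoxygenase, the first enzyme of leukotriene synthesis, had 2.46, 3.53 and 3.11 CPM in the wild type and 4.96, 4.14 and 3.70 at Il10KO week 6. It had 3.88, 1.71 and 0.632 CPM at week 10, 1.75, 0.654 and 1.34 at week 12, and later 3.32, 1.37 and 3.64 at week 14. The values of weeks 12 and 14 were all below those of week 6, while week 10 replicate 1 overlapped it. The changes were -1.05 ± 0.63 at week 10, -1.77 ± 0.64 at week 12 and -0.61 ± 0.62 at week 14 (edgeR adjusted p = 0.201, 0.106 and 0.419). The change at week 12 was as large as that of Dclk1, with a wider error. It was below 0 in all 15 alternative fits and passed in 7 of them, among them DESeq2 and edgeR with RIN as covariate.

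Il17rb (chromosome 14, 29996135 to 30008896, reverse strand) encodes a receptor subunit for interleukin 25 and had a higher mean CPM at every later age than at Il10KO week 6. It had 1.498, 2.16 and 1.46 CPM in the wild type, 1.28, 1.26 and 1.16 at Il10KO week 6 and 1.30, 2.80 and 2.41 at week 8. It had 1.15, 1.95 and 1.38 CPM at week 10, 1.69, 3.13 and 2.55 at week 12, and later 1.05, 3.12 and 1.45 at week 14. All values of weeks 8 and 12 were above all of week 6, as in 11.1% and 32.8% of all genes, and weeks 10 and 14 overlapped it. The changes were 0.81 ± 0.42 at week 8 and 0.99 ± 0.42 at week 12, and neither passed (edgeR adjusted p = 0.74 and 0.134). At weeks 10 and 14 the changes were 0.27 and 0.58 (0.621 and 0.262), and their direction turned with the scaling. Mean TPM went from 1.01 at week 6 to 0.771 at week 10 and 0.743 at week 14, and limma on TPM with a pseudocount of 0.1 gave -0.39 and -0.50 (0.485 and 0.3). The median change of all genes in that fit was lower still, at -0.515 and -1.15.

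**Figure D2:**
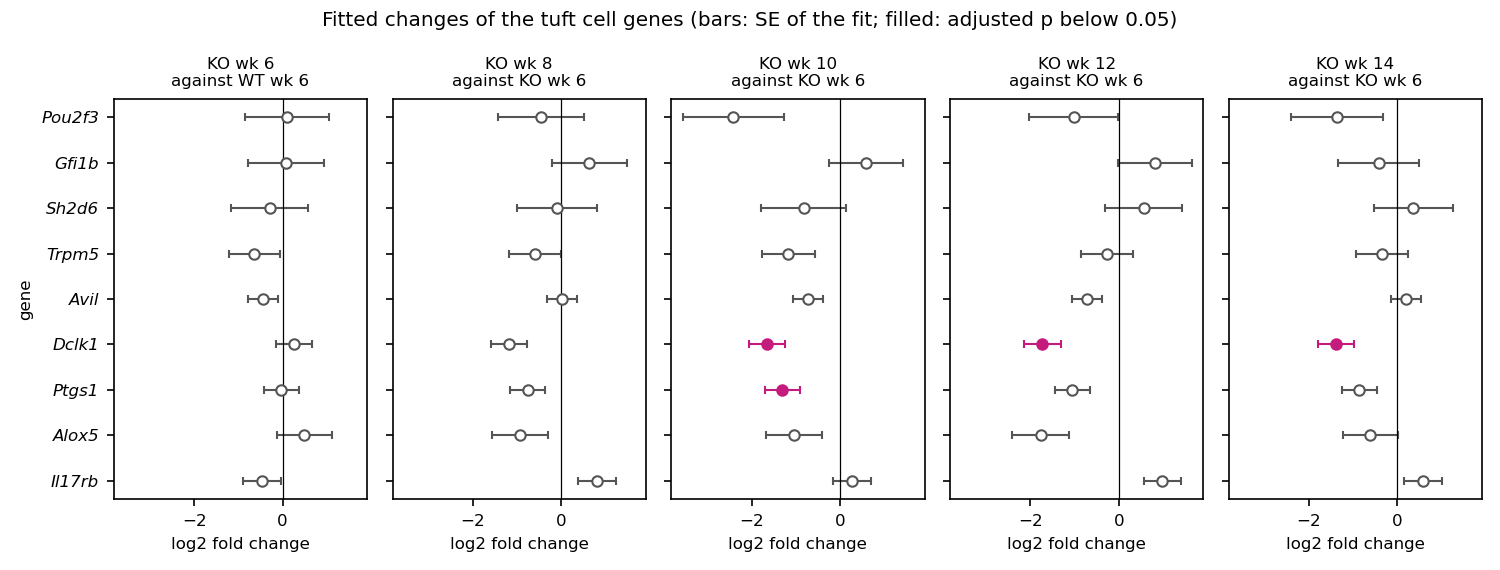
Log2 fold changes (x axis) of the 9 genes (y axis), one panel a comparison, with bars for the SE of the fit and filled points for an adjusted p below 0.05. The filled points are Dclk1 at weeks 10, 12 and 14 and Ptgs1 at week 10, all below 0.

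Counted over the 9 genes, the falls were set against all genes tested. At week 10, 2 of 9 fell and 0 rose, while 9.48% of all 16300 genes fell and 14.6% rose. The median change of the 9 was -1.05, against 0.01 over all genes, and 7 were below 0. At week 12, 1 of 9 fell, against 0.491% of all genes lower and 1.85% called in either direction, with a median of -0.71 against 0.00. At week 14, 1 of 9 fell, against 8.56% lower and 24.5% higher, with a median of -0.43 against -0.06. Groups that did not overlap, lower than week 6, were found for 5 of the 9 at week 10 (30.3% of all genes), 4 at week 12 (32.9%) and 3 at week 14 (21.5%). One gene, Il17rb, was higher without overlap at week 12, as were 32.8% of all genes. Without the low-RIN libraries of week 14, the fit called 4 of the 9 at week 10, where Pou2f3 and Trpm5 joined Dclk1 and Ptgs1, all lower, and it called 26.8% of all genes lower and 51.4% in either direction. In that fit 4 of the 9 also passed at week 12, namely Dclk1, Alox5 and Ptgs1, which were lower, and Il17rb, which was higher, against 40.8% of all genes called (22.0% lower and 18.8% higher). At week 14 that fit rests on replicate 1 alone. Without week 14 replicate 1, the library of that age with the lowest neutrophil sum, 4 of the 9 fell at week 14, with Trpm5 at -1.58 (edgeR adjusted p = 0.0208) and Pou2f3 at 0 counts in both remaining libraries (0.0104) besides Dclk1 and Ptgs1. That fit called 36.5% of all genes lower and 69.5% in either direction, so the members' count lies near that over all genes. With library size alone in place of TMM the median change of all genes was -0.26 at week 10, -0.15 at week 12 and -0.56 at week 14, and Dclk1 was then the only gene of the 9 called, at week 10.

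The comparisons of adjacent ages and of genotype gave no call. Il10KO against wild type at week 6 had 0 of 9 called, as had 0% of all genes, with 0 of 9 at an unadjusted p under 0.05 by edgeR, DESeq2 and limma and 2 by voom with a weight per group (Trpm5 and Avil). The changes of Trpm5, Avil and Il17rb were -0.64 ± 0.58, -0.45 ± 0.34 and -0.46 ± 0.42, and that of Alox5 was 0.49 ± 0.62. For Alox5 all Il10KO values were above, and for Il17rb all were below, those of the wild type, as they were for 12.3% and 13.1% of all genes. Week 8 against week 6 had 0 of 9 called (0.0675% of all genes), with 1 unadjusted by edgeR and DESeq2 (Dclk1), 1 or 2 by limma and 4 by voom. Week 10 against week 8 had 0 of 9 called (0.196%), with 1 unadjusted by edgeR and DESeq2 (Avil), 2 by limma and 0 by voom. In that comparison all 9 fitted changes were below 0, with a median of -0.54 against -0.02 over all genes. Those of Gfi1b (-0.05) and Alox5 (-0.11) were above 0 in some alternative fits. Week 12 against week 10 had 0 of 9 called (0.448%) and 0 unadjusted by edgeR, DESeq2, limma and voom, with 7 changes above 0. Week 14 against week 12 had 0 of 9 called (0.00613%), with 1 unadjusted by edgeR and DESeq2 (Avil), 0 or 1 by limma and 0 by voom. These adjacent comparisons share groups, so their directions are not independent.

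The slope on lipocalin asked whether the genes move with labelled inflammation among Il10KO mice of the same age. It was called in 0 of 9 genes and in 0% of 16182 genes, with 0 of 9 at an unadjusted p under 0.05 by edgeR, DESeq2 and limma. Dclk1 had a slope of -0.95 ± 0.75 and Pou2f3 one of -2.94 ± 1.91 per 10-fold of lipocalin (edgeR adjusted p = 0.888 for both).

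The transcripts of Dclk1 from both starts were lower at weeks 10 and 12. Of 15 annotated transcripts (GENCODE, GRCm38), 3 begin at the upstream start and 7 at the downstream start. Transcripts from the upstream start are known to encode the doublecortin domains, and those from the downstream start to encode forms without them. The most abundant has 7 exons from 55242526 to 55471316 and ends well before the long transcripts. It held 51.7% of the gene's TPM over the 18 libraries, and a downstream transcript of 13 exons (55461916 to 55536551) held 11.5%. Summed CPM from the upstream start fell in the range 12.1 to 17.3 at Il10KO week 6, and later means were 4.30 ± 1.87 (week 10), 5.16 ± 1.05 (week 12) and 3.42 ± 4.97 (week 14). From the downstream start the means were 4.52 ± 0.376 (week 6), 1.99 ± 1.27 (week 10), 0.718 ± 0.895 (week 12) and 4.09 ± 0.611 (week 14), each with the SD of 3 libraries. At week 14 the downstream sum overlapped week 6, while the upstream sum lay below it in all 3 libraries. The 2 transcripts with a short end went from 12.2 ± 2.26 CPM in week 6 libraries to 4.58 ± 0.0816 in week 10 libraries, and the 9 with a long end from 7.54 ± 0.910 to 1.71 ± 0.531. The short end thus made up 61.5 ± 2.97% and then 73.2 ± 5.90% of the gene, with all week 10 values above all of week 6. At the other ages this share overlapped week 6 (59.3 to 64.9%). It was 42.1 to 63.9% at week 8, 63.2 to 75.0% at week 12 and 51.3 to 98.6% at week 14. In week 10 replicate 1, 76.4 of the 116.7 short-end counts were on the downstream transcript of 3 exons. These sums are kallisto estimates on 70 to 729 counts of the gene a library, and they were not tested.

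One library stood apart in its transcripts. In week 14 replicate 2, of RIN 6.5, all 70 estimated Dclk1 counts were on downstream transcripts, 69 of them on a short one of 3 exons, and the upstream start had 0. In the same library all 156 Ptgs1 counts were on a transcript of 10 exons annotated as not coding for protein, and the coding transcript of 11 exons, which held 87.2% of the gene's TPM over all libraries, had 0. The next highest count on that noncoding transcript was 15.1, in week 8 replicate 2. In week 14 replicate 3, of RIN 5.8, the coding Ptgs1 transcript had 279 of 285 counts, and upstream Dclk1 had 21.8 of 87. The 3-exon Dclk1 transcript also held 42.3 of the 87 counts there and 76.4 of 147 in week 10 replicate 1, a library of RIN 8.5, where all downstream transcripts together had 88.4. It had at most 31.8 counts in the other 15 libraries. The part of RIN in these values was not tested. For Trpm5, the 25-exon transcript had 25.3, 25.8 and 29 counts at week 6 and 0, 0 and 8.06 at week 10, while the most abundant one by TPM, of 5 exons, had 9.72, 9 and 7 and then 5, 6.82 and 12.9. The lower Trpm5 counts of week 10 were therefore those of the longer transcript, and this split was not tested.

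**Figure D3:**
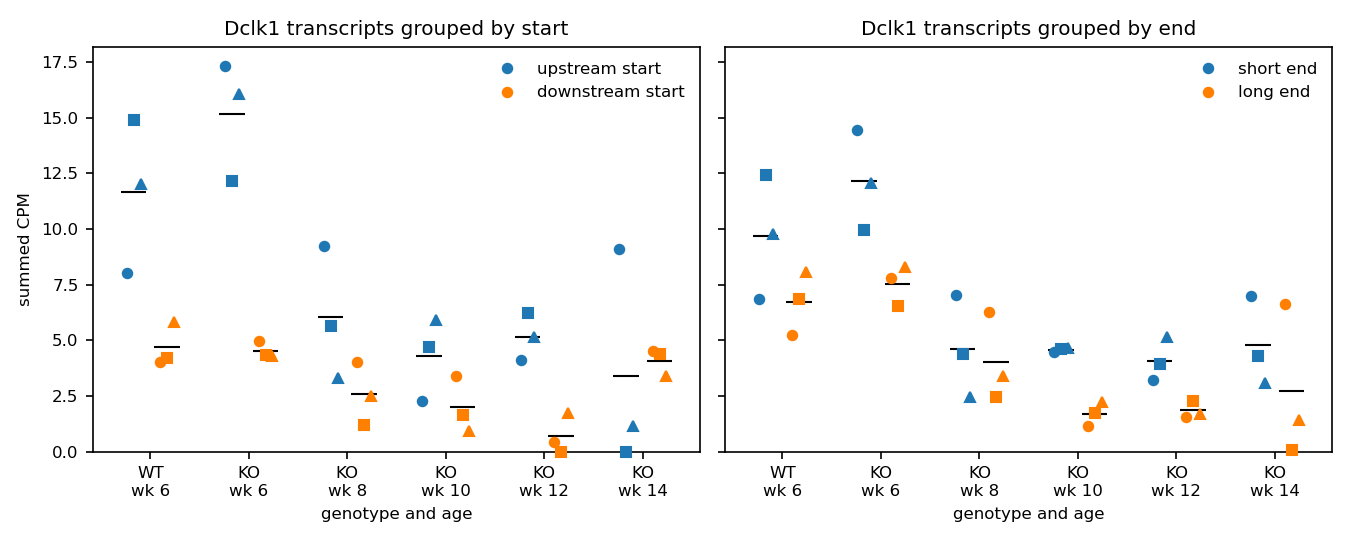
Summed CPM of Dclk1 transcripts (y axis, linear, from 0) by group (x axis), grouped by annotated start in one panel and by annotated end in the other. Symbols mark the 3 libraries. Upstream transcripts are at 12.1 to 17.3 CPM at Il10KO week 6 and at 2.25 to 5.93 CPM at week 10, and the upstream value of week 14 replicate 2 is 0.

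Across the 18 libraries Dclk1 and Ptgs1 followed each other, Trpm5 and Pou2f3, and the markers of stroma. These correlations are descriptions over log2 CPM, and the points share libraries, groups and normalisation. Dclk1 and Ptgs1 had a Pearson's r of 0.887, and Trpm5 and Pou2f3 had 0.788. For Dclk1 and Ptgs1 r was 0.720 and 0.706 with Trpm5, and 0.700 and 0.663 with Pou2f3. It was 0.276 and 0.402 with Sh2d6, and -0.111 and -0.126 with Gfi1b. With the 5 taste transduction genes named below it was 0.706 and 0.575, and with the 18 further tuft cell markers -0.158 and -0.122. Il17rb was negative with all but Gfi1b, down to -0.639 with Alox5. With the mean log2 CPM of 6 endothelial genes (Pecam1, Cdh5, Tek, Emcn, Kdr and Vwf) r was 0.968 for Dclk1, 0.921 for Ptgs1 and 0.767 for Trpm5. With 10 enteric neuron and glia genes it was 0.914, 0.884 and 0.830, and with 6 fibroblast genes it was 0.906 for Dclk1 and 0.926 for Ptgs1. With 10 epithelial genes it was 0.035 for Dclk1, 0.036 for Ptgs1 and -0.018 for Trpm5. With the neutrophil genes it was -0.820 for Dclk1, -0.778 for Ptgs1 and -0.866 for Pou2f3. Gfi1b had its highest r with epithelium, 0.570, and Sh2d6 was weakly related to each of these.

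Cell type markers moved in the same comparisons. The endothelial sum was 132 to 177 CPM in the wild type, 141 to 164 at Il10KO week 6, 42.7 to 118 at week 8, 37.4 to 65.2 at week 10, 40.7 to 54.2 at week 12 and 30.9 to 110 at week 14. At week 10, 4 of 6 endothelial, 4 of 6 fibroblast and 6 of 10 enteric neuron and glia genes fell, and at week 14, 4, 2 and 2 of them did. Over all genes 9.48% fell and 14.6% rose at week 10, and 8.56% fell at week 14. Of 6 smooth muscle and interstitial cell genes 0 were called at weeks 10 and 14, with a median of -0.94 at week 10. With these, r was 0.784 for Dclk1 and 0.892 for Ptgs1. At week 12, 0 of the endothelial, 1 of the fibroblast and 1 of the neuron and glia genes fell, against 0.491% of all genes. Epithelial markers had 0 of 10 lower and 2 higher at week 10, with a median of -0.18. The sum of 7 goblet cell genes was 9742 to 11760 CPM at week 6 and 2938 to 8312 at week 10, without overlap, though 0 of the 7 passed in edgeR, where Muc2 (-1.11 ± 0.42) and Clca1 (-2.34 ± 0.97) had unadjusted p under 0.05 (adjusted p = 0.0628 and 0.0813). With the mean log2 CPM of these genes r was 0.476 for Dclk1, 0.603 for Trpm5 and 0.611 for Ptgs1. Of 8 enteroendocrine genes 2 fell (Chga and Pcsk1n) and 2 rose (Gcg and Cck) at week 10, against 9.48% and 14.6% of all genes. The neuron and glia sum was 74.9 to 79.6 CPM at week 6 and 21.8 to 37.2 at week 10, and the fibroblast sum 1813 to 2700 and 711 to 1050. Of 9 neutrophil genes 8 rose at week 10, against 14.6% of all genes, their sum going from 3.35 to 4.83 CPM to 239 to 5095. No gene of these lists was at 0 in all libraries of a group. Their part in the falls of Dclk1 and Ptgs1 was not tested.

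**Figure D4:**
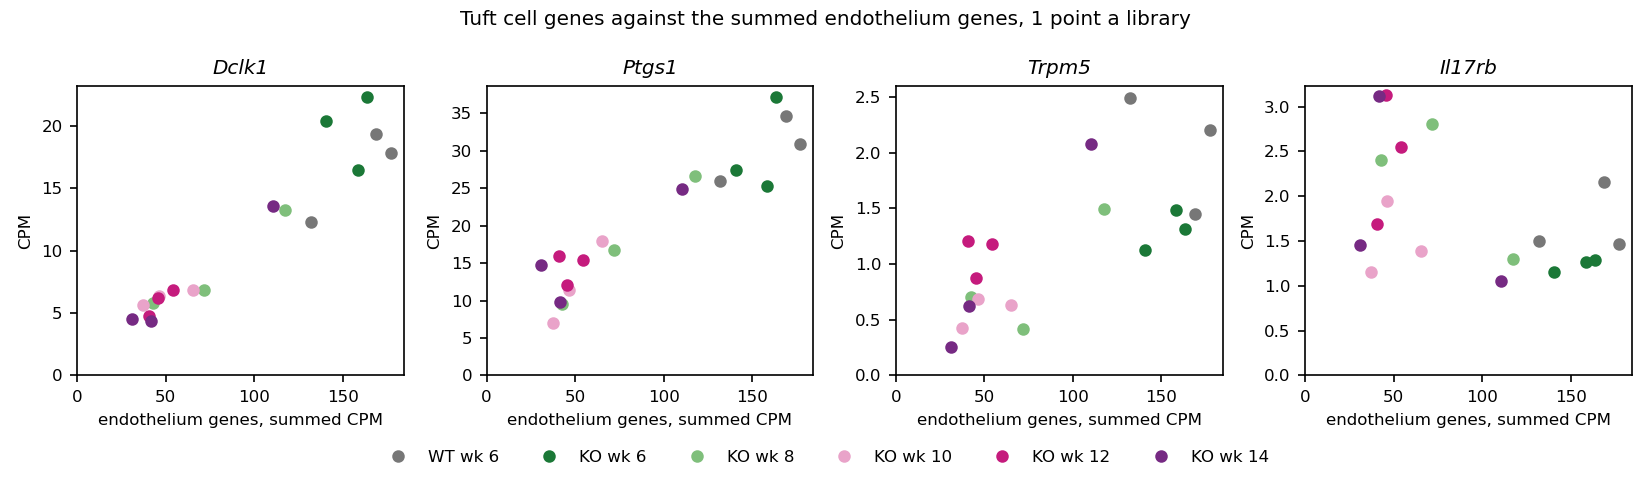
CPM of Dclk1, Ptgs1, Trpm5 and Il17rb (y axes, linear, from 0) against the summed CPM of 6 endothelial genes (x axes), 1 point a library, coloured by group. Points of Dclk1 and Ptgs1 rise along the x axis, and week 6 libraries of both genotypes lie at 132 to 177 CPM on it.

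The genes whose course was most like the mean of Trpm5, Pou2f3 and Sh2d6, each scaled over the 18 libraries, were ranked among 13722 genes at a mean log2 CPM of at least 0. Dixdc1 led with a Pearson's r of 0.880, followed by Ptpru (0.872), Zfp866 and Mapre3 (both 0.871) and Crebl2 (0.870). Ank, Rimbp2, Ttll10, Osbpl6 and Klhdc8b completed the 10, at 0.865 to 0.869. Genes of the tuft cell lists below had r of both signs with this mean. The highest were 0.742 for Gnat3, 0.684 for Inpp5j, 0.638 for Hmx3, 0.637 for Chat and 0.632 for Bmx. The lowest were -0.698 for Ptgs2, -0.679 for Cd300lf, -0.607 for Alox5ap, -0.533 for Rgs13 and -0.462 for Pla2g4a. The others lay between, such as Espn at 0.062 and Matk at -0.048. Gnat3, Hmx3 and Chat, at a mean log2 CPM of -2.2, -1.88 and -2.35, lay below the limit of the ranking. Low counts in them and in Pou2f3 and Sh2d6 limit what their r can show.

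Partners of the 9 genes were taken from 4 lists. Of 9 taste transduction genes 5 were in the table, and Gng13, Gnb3, Tas1r1 and Sucnr1 were not analysed here. At weeks 10, 12 and 14, 0 of the 5 were called by edgeR. DESeq2 called Tas1r3, lower at week 14, and limma on TPM with a pseudocount of 1 called Tas1r3 at week 10 and Tas1r3 and Itpr3 at week 14, all lower. Of all 16300 genes DESeq2 called 2921 lower at week 14, and that limma fit 2272 at week 10 and 8899 at week 14. All 5 had changes below 0 at week 10 (median -0.65) and at week 14 (-0.83), among them Gnat3, the alpha subunit gustducin, at -1.64 ± 0.93 (week 10, edgeR adjusted p = 0.166). At an unadjusted edgeR p under 0.05 there were 0 genes at weeks 10 and 12 and 2 at week 14, Tas1r3 (0.0346) and Itpr3 (0.0499), both with changes below 0. Without week 14 replicate 1, 4 of the 5 fell at week 14 (Gnat3, Itpr3, Plcb2 and Tas1r3), in the fit that called 36.5% of all genes lower.

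Of 6 eicosanoid genes beside Ptgs1 and Alox5, 2 rose at week 14 (Ptgs2 and Alox5ap) and 0 fell, where 24.5% of all genes rose, and 2 of the other 4 had changes below 0. In this list 0 passed in edgeR at weeks 10 and 12, where 2 and 1 had an unadjusted p under 0.05. DESeq2 called 2 at week 10 (Ptgs2 higher, Ltc4s lower) and 1 at week 12 (Pla2g4a, lower), against 5943 and 2515 of 16300 genes. Ptgs2, the inducible cyclooxygenase, had 4.89, 4.68 and 4.64 CPM at week 6, 32.9, 10.8 and 7.29 at week 10, and later 2.82, 55.0 and 24.6 at week 14, a rise of 2.53 ± 0.82 (edgeR adjusted p = 0.0316). Alox5ap, which activates 5-lipoxygenase, rose by 1.96 ± 0.68 (0.0388), from 6.61, 4.55 and 4.45 CPM to 5.16, 27.6 and 28.3. In both, week 14 replicates 2 and 3 were high and replicate 1 was within or below the range of week 6. Both calls were lost without either one of the low-RIN libraries of week 14 or without any 1 of the week 6 libraries. Without both low-RIN libraries week 14 rests on replicate 1 alone. Library size only and limma on TPM, which have no TMM scaling, called neither and called Pla2g4a lower at week 14. Library size only called 337 of 16300 genes lower, and limma 8899 and 9158 at pseudocounts of 1 and 0.1. Pla2g4a, a phospholipase that releases arachidonate, passed across the 5 ages (0.0273), with a change of -0.48 ± 0.16 at week 12 that did not pass (0.0984).

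Of 21 further tuft cell markers 18 were in the table, and Il25, Hmx2 and Ly6g6f were not analysed here. Leukocytes also use at least 9 of the 18 (Rgs13, Lrmp, Fyb, Siglecf, Cd300lf, Ptpn6, Vav1, Spib and Pik3r5). At week 10, 1 rose (Cd300lf) and 3 fell (Bmx, Nrep and Kctd12), against 14.6% of all genes higher and 9.48% lower. At week 14, 3 rose (Rgs13, Lrmp and Cd300lf) and 1 fell (Kctd12), against 24.5% higher and 8.56% lower. Cd300lf, an inhibitory receptor of myeloid cells and the mouse norovirus receptor on tuft cells, had 0.459, 0.601 and 0.501 CPM at week 6 and 30.5, 7.27 and 1.45 at week 10, a rise of 4.64 ± 1.16 (edgeR adjusted p = 0.0158). Rgs13, a regulator of G protein signalling also known from B cells and mast cells, had 0.612, 0.506 and 0.439 CPM at week 6 and 0.948, 53.0 and 18.4 at week 14, a rise of 5.52 ± 1.55 (0.0162). Bmx, a TEC family kinase also known from endothelium, had 1.56, 2.21 and 1.504 CPM at week 6 and 0.538, 0.546 and 0.271 at week 10. Bmx fell by 1.96 on the log2 scale (SE 0.46, 0.013). Nrep, a gene also known from fibroblasts and neurons, had 15.4, 14.3 and 11.5 CPM at week 6 and 4.96, 5.94 and 5.57 at week 10, a fall of 1.32 (SE 0.22, 0.00339), and was back at 12.7, 13.4 and 14.0 at week 14. In both falls all week 10 libraries were below all of week 6, as in 30.3% of all genes. Without week 6 replicate 1 or week 10 replicate 1, Bmx and Nrep fell and no marker rose at week 10. Those fits called 300 and 302 of all genes lower and 467 and 788 higher. Without the low-RIN libraries 2 rose and 5 fell at week 10, with Rgs13, Chat and Inpp5j added. That fit called 26.8% of all genes lower and 51.4% in either direction at week 10, and at week 14 it rests on replicate 1 alone. Without week 14 replicate 1, 5 rose and 4 fell at week 14, where 36.5% of all genes fell and 69.5% were called. Without replicate 2 or 3, 1 or 2 rose, where 1847 and 2205 of all genes did. With limma on TPM with a pseudocount of 1, 0 of the 18 rose and 8 fell at week 14, where 54.6% of all genes fell in that fit, so the balance of directions there turned with the scaling. The sum of 8 macrophage genes was 453 to 632 CPM at week 6, 566 to 1960 at week 10 and 700 to 6351 in week 14 libraries, and its part in the rise of Cd300lf was not tested. At week 12, 0 passed in edgeR, 9 had an unadjusted p under 0.05, and DESeq2 called 4, against 2515 of 16300 genes.

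Of the type 2 immune genes around tuft cells most of those measured rose at weeks 10 and 14. Of 13 genes 10 were in the table, and Il5, Il9 and Il13 were not analysed here. At week 10, 6 of 10 rose and 0 fell, against 14.6% of all genes higher, and at week 14, 8 rose and 0 fell, against 24.5%, while 0 passed in edgeR at week 12, where 3 had an unadjusted p under 0.05 and DESeq2 called 1 (Retnlb). DESeq2 called 2515 of 16300 genes at week 12. Il4ra, the receptor chain shared by interleukins 4 and 13, had 25.9, 20.7 and 29.2 CPM at week 6 and 80.1, 53.3 and 66.9 at week 10, a rise of 1.40 ± 0.25 (edgeR adjusted p = 0.00386). Il13ra1, its partner chain, rose by 1.44 ± 0.31 (0.00908), from 154, 153 and 134 CPM to 487, 381 and 327. In both genes all week 10 libraries were above all of week 6, as in 27.5% of all genes. Il4, the cytokine itself, had 0.887, 0.474 and 0.564 CPM at week 6 and 0.192, 0.0341 and 0.301 at week 10, all below, and its change of -1.83 ± 0.83 did not pass in edgeR (adjusted p = 0.0988). DESeq2, limma on TPM with a pseudocount of 1, and edgeR without the week 14 libraries or those of low RIN called it lower. Areg, the growth factor amphiregulin, rose by 2.17 ± 0.63 at week 10 (0.0278) and by 3.37 ± 0.66 at week 14 (0.00616), reaching 17.6, 73.4 and 147 CPM from 10.6, 3.26 and 9.08. Retnlb, a goblet cell product induced by type 2 cytokines, rose by 5.80 ± 1.64 at week 10 (0.025) and by 7.53 ± 1.76 at week 14 (0.00711), where it had 2.69, 203.1 and 289 CPM. For both genes week 14 replicate 1 was far below replicates 2 and 3. At week 10, 2 genes (Il13ra1 and Il4ra) passed without week 6 replicate 1 or without week 10 replicate 1, and with cage as a factor only Il4ra passed. Those fits called 467, 788 and 348 of all genes higher. At week 14, 0 passed with RIN as covariate, cage or only the compared groups, where 0 of all genes did. Without the low-RIN libraries week 14 rests on replicate 1 alone. With voom 1 passed, where 1096 of 16300 genes rose. With limma on TPM or library size only 2 passed (Areg and Retnlb), where 879 and 909 (limma) and 1600 genes rose. Without replicate 2, 3 passed, and without replicate 3, 4 did, where 1847 and 2205 genes rose. Without any 1 of the week 6 libraries 3 passed, where 2480 to 2580 genes rose.

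**Figure D5:**
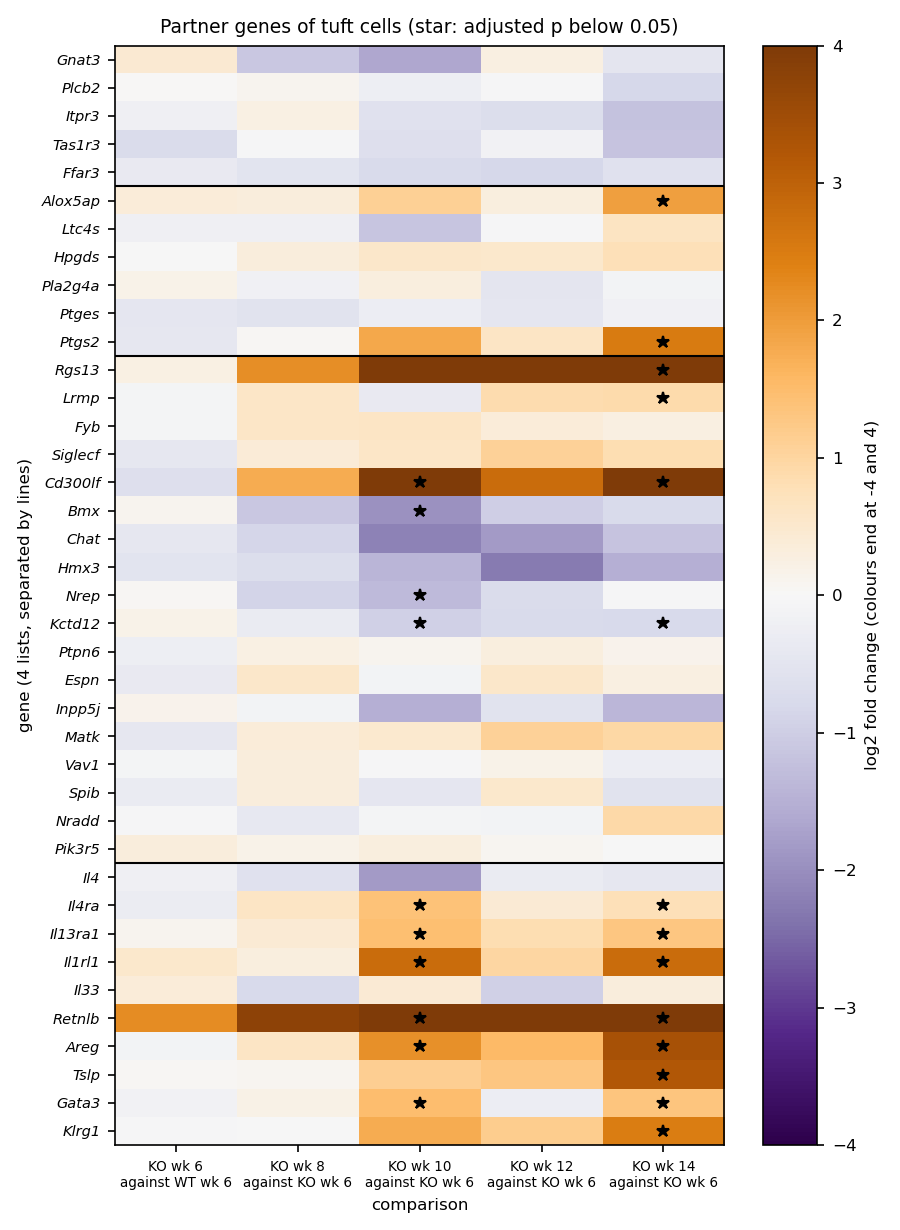
Log2 fold changes of the partner genes (y axis, 4 lists separated by lines) in 5 comparisons (x axis), as colour with ends at -4 and 4, and stars for an adjusted p below 0.05. The stars of the type 2 genes lie at weeks 10 and 14, and the taste transduction genes have none.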

How the data were processed

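Polyadenylated RNA of distal colon was sequenced from 18 mice, and the labels' genotype and age give the groups. The authors quantified transcripts with kallisto on mm10 after FastQC, per the submitters' processing notes; versions and the annotation release are not given in the sources used here. The deposited gene table holds estimated counts (expected counts) summed per gene, and every gene in it has at least 50 counts over the libraries. The deposited TPM tables hold length-scaled shares of transcripts.

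The counts were rounded and given TMM factors. One quasi-likelihood fit of 6 group means was made with edgeR 4.0.16, and each contrast was tested with its F-test. The function filterByExpr kept 16300 genes, and p-values are two-sided with Benjamini-Hochberg adjustment over all of them (16182 in the slope fit of the 15 Il10KO libraries, with age as a factor). The SE is the unshrunk change divided by the square root of F, and log2 CPM use a prior count of 2. The biological coefficient of variation common to all genes was 0.394. Positions and transcript classes came from GENCODE on GRCm38, and sequences from RefSeq on GRCm38.p6. Each gene count of the 9 lay within 1 count of its transcript sum. Replicates differed beyond sampling noise, with a chi-square per gene of at least 22.

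The members and lists were chosen with earlier results of these data known. All 9 genes are named; of each partner list, genes called in a comparison are named with values up to the 4 with the smallest p, and other names follow from counts. One gene of the further tuft cell markers is not reported here. Alternatives were DESeq2 1.42.0, limma 3.58.1 on log2 TPM with pseudocounts of 1 and 0.1, voom with a weight per group, other normalisations and filters, RIN, cage, a replicate block, only the compared groups, an epithelial offset, and leaving out libraries. The steps were tested on simulated data. R was 4.3.3, Python 3.11.15, pandas 2.3.3, NumPy 2.4.6 and matplotlib 3.10.9.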

Additional observations from a re-analysis of the deposited data

How the results depend on the processing

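Of 1950 repeated tests of the 9 genes, 1870 stayed on the same side of the threshold, 44 gained and 36 lost a call. None of the called changes reversed, and 137 changes that were not called had another sign. Most repeats were of results without a call, and all lost calls were of Dclk1 or Ptgs1. Dclk1 stayed called in 14 of 15 alternatives at week 10, 10 of 15 at week 12 and 8 of 14 at week 14. With 1 library left out it stayed called in 4, 0 and 2 of 6 fits. Across the ages it stayed called in 13 of 15 of either kind. Ptgs1 at week 10 stayed called in 12 of 15 alternatives and 1 of 6 left-out fits. Of 108 mean levels 2 moved by more than their SD. The number of genes called at week 10 (2) was 0 with cage as a factor, 1 with library size only or limma at a pseudocount of 0.1, 3 with limma at a pseudocount of 1 or only the compared groups, and 4 without the week 14 libraries or without those of low RIN. Over all 16300 genes 2310 passed with library size only, and 2021 and 3250 with limma at 0.1 and 1. With only the compared groups 6177 of 15406 passed, and 6 of the 9 were tested. Without the week 14 libraries 8354 of 16176 passed. At week 12 (1) it was 0 with cage, library size only, limma at a pseudocount of 0.1 or an epithelial offset, 2 with DESeq2 or limma at a pseudocount of 1, 3 with RIN as covariate, 4 with only the compared groups, without the week 14 libraries or without those of low RIN, and 5 with voom. Over all 16300 genes 2515 passed with DESeq2, 664 with limma at 1, 5751 with RIN and 10096 with voom. With only the compared groups 9186 of 15564 passed, and 8 of the 9 were tested. Without the week 14 libraries 6688 of 16176 passed. The fits with 0 called 2 (cage), 199 (library size only), 137 (limma) and 105 (offset) of all genes. At week 14 (1) it was 0 with cage, library size only, only the compared groups, RIN or voom, and 4 and 3 with limma at pseudocounts of 0.1 and 1. Over all genes 0 passed with cage, only the compared groups or RIN, 1937 with library size only and 1377 with voom. Those limma fits called 10067 and 9778 of 16300 genes. Without the low-RIN libraries week 14 rests on replicate 1 alone. Across the ages (1) it was 0 with cage or library size only, 2 with limma at a pseudocount of 1, RIN, or without the week 14 libraries, 3 with DESeq2 and 4 with voom. Over all 16300 genes 1 passed with cage, 1451 with library size only, 6770 with limma at 1 and 6098 with RIN. DESeq2 called 8216 and voom 9778, and without the week 14 libraries 8121 of 16176 passed. Leaving out 1 library gave 0 to 2 at week 10, 0 to 0 at week 12, 0 to 4 at week 14, 0 to 1 for week 14 against week 12 and 0 to 3 across the ages. The highest counts in these last comparisons, from week 14 on, came without week 14 replicate 1. That fit called 11335, 7707 and 11683 of 16321 genes in them. The cause was not tested.

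Over all genes the counts moved too: 3917 passed at week 10, against 5943 with DESeq2 and 532 with cage; 301 at week 12, against 2515 with DESeq2 and 10096 with voom; and 5388 at week 14, against 11335 without week 14 replicate 1 and 0 with RIN as covariate. At week 14, 3993 of the 5388 were higher, and with limma at a pseudocount of 1 only 879 of 9778 were.

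Replicate numbers do not pair the mice: same-numbered libraries had deviations correlated at a median of 0.016 (-0.615 to 0.475), and 8 of 18 libraries were closest to their own number. With the replicate block, 2 genes were called at week 10, 0 at week 12, 1 at week 14 and 1 across the ages. Cage could not be fitted for the comparison with wild type, and voom, cage and only the compared groups were not run for the slope. The lowest genes, Pou2f3, Gfi1b and Sh2d6, had few counts, which limits the differences detectable in them; Pou2f3 passed only in the fits without some week 14 libraries given above.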
